A study of Mus musculus with 8 samples.

Results

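The genes described here are Ccl2, Ccl7, Ccl8 and Ccl12, which encode CC chemokines that attract monocytes, and Ccr2, which encodes the receptor on which several of them act. They were chosen by name, and they are 5 of the 21755 genes counted in this series. Single CD45+ cells, that is leukocytes, were collected from skin wounds of C57BL/6 mice (C57BL/6J in the methods of the study) on days 1, 3, 5 and 7 and profiled as UMI counts, which count RNA molecules tagged before amplification. Diabetic mice had received streptozotocin, a toxin of the insulin-producing beta cells, at 120 mg/kg when 4 weeks old and after 12 h of fasting, and they entered the study with a blood glucose of at least 16.5 mmol/L measured 7 days later. The other libraries are from control wounds of the same strain. The labels repeat the streptozotocin protocol on these samples too, and what control mice were given is not stated in the sources used here. There are 8 libraries, 1 for each group and day, and wounds of several mice were pooled for each of them according to the methods of the study. No single day can therefore be tested, and tests below use the 4 days as replicates of a group or the 2 groups as replicates of a day.

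As background, monocytes leave the bone marrow and enter inflamed tissue along gradients of CC chemokines, and CCR2 is the receptor that this recruitment chiefly needs. CCL2, CCL7 and CCL12 act on mouse CCR2, whereas mouse CCL8 acts mainly on CCR8. In a skin wound the recruited monocytes turn into macrophages, and monocytes and macrophages themselves secrete these ligands, so the RNA of both ends of the axis can be read in the same cells.

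The 4 ligand genes stand close together on chromosome 11 of the mouse genome GRCm38, within 81229 bases that also hold Ccl11. By the GENCODE annotation, Ccl2 lies at chr11:82035571-82037453, Ccl7 at chr11:82045712-82047525, Ccl12 at chr11:82101845-82103400 and Ccl8 at chr11:82115185-82116799, and Ccr2 lies apart at chr9:124101950-124113557. All are on the + strand. Promoter sequence was at hand for 3 of the 5 genes, from RefSeq on GRCm38.p6. The 250 bases before the RefSeq start of each of these genes are shown because Ccl12 and Ccl8 are neighbours whose levels over days and cell types went apart below, and because Ccr2 showed another pattern than either. Ccl12 is read from chr11:82101595-82101844, Ccl8 from chr11:82114935-82115184 and Ccr2 from chr9:124101933-124102182, each 5′ to 3′ on the + strand, with capitals at letters that match a searched motif on either strand. The RefSeq start of Ccr2 lies downstream of the GENCODE start given above, so most of its window is inside the gene as GENCODE draws it.
Ccl12: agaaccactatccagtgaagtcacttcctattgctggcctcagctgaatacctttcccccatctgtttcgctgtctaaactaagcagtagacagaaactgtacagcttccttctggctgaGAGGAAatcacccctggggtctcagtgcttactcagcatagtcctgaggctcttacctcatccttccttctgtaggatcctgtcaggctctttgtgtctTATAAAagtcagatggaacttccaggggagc
Ccl8: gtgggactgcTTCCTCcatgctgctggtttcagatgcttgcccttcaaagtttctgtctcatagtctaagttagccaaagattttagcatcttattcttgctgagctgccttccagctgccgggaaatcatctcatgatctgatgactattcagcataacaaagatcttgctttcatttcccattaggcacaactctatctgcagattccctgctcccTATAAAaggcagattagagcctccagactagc
Ccr2: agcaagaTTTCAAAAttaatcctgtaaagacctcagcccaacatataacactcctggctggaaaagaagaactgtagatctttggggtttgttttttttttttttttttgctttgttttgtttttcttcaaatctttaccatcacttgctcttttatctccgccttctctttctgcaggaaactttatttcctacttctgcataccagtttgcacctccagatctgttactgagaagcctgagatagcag

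Both strands were searched for 5 motifs, each given by its letters. These were TGANTCA for the factor AP-1 and TTNNGNAA for the factor family C/EBP. The myeloid factor PU.1 was searched as GAGGAA. The box bound by the TATA-binding protein was searched as TATAAA, and the GC box as GGGCGG. The promoters of Ccl12 and Ccl8 each held TATAAA on the + strand, starting 31 and 32 bases before the gene, and 12.4% of 32851 promoters of this length held it. Each also held GAGGAA, at 130 bases before Ccl12 on the + strand and at 240 bases before Ccl8 on the - strand, as did 23.3% of promoters. The promoter of Ccr2 held only a match of TTNNGNAA, at 243 bases before its RefSeq start on the - strand, which 36.8% of promoters held. The letters for AP-1 and the GC box, held by 6.75% and 32.7% of promoters, were not in these 3 windows.

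The libraries held 19236522 to 33842509 UMIs over 38959 cell barcodes. A filter of over 200 genes and under 20% mitochondrial UMIs left 35215 cells, with a median of 2573 to 8219 UMIs per cell in a library. It removed 1.00% to 10.6% of barcodes in 7 libraries and 28.5% in the library of control day 5, which also had the deepest cells. These cells formed 19 clusters with the 5 genes and 20 related genes kept out of the clustering, and 18 clusters were named from marker genes, as monocyte-like, macrophage-like and so on. The markers of every class were higher inside than outside it in each library with at least 20 of its cells. The same markers named the classes, so this does not test the names. The remaining cluster of 3400 shallow cells was left without a name. Neutrophil-like cells are not compared between groups, because in 1 of their clusters, led by Il23a and Il1a, the 10 leading genes held no neutrophil marker and 1 marker of another class, Cd24a of Langerhans cells. A neutrophil-like and a monocyte-like cluster led by interferon-induced genes held no marker of any class among their 10 leading genes, and they were named from the whole marker lists. Another neutrophil-like cluster was led by Ighg2b and Igkc, with Jchain and Igkv12-44 beside Cxcr2 and Csf3r. On day 7 it made up 32.3% of diabetic and 73.4% of control neutrophil-like cells.

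Ccl2, Ccl7 and Ccl12 were genes of monocyte-like and macrophage-like cells, Ccl8 was a gene of macrophage-like cells, and Ccr2 was spread over monocyte-like, T cell-like, natural killer (NK) cell-like, macrophage-like and dendritic-like cells. Levels are given as CPM, the UMIs of a gene scaled to 1e6 UMIs summed over the cells of a class in a library, for days 1, 3, 5 and 7 in that order. Since RNA set free from broken cells is captured with every cell, T cell-like cells, which should lack the ligands, and neutrophil-like cells, which should lack Ccr2, were used as a measure of background. The plot of levels by class shows all libraries.

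**Figure D1:**
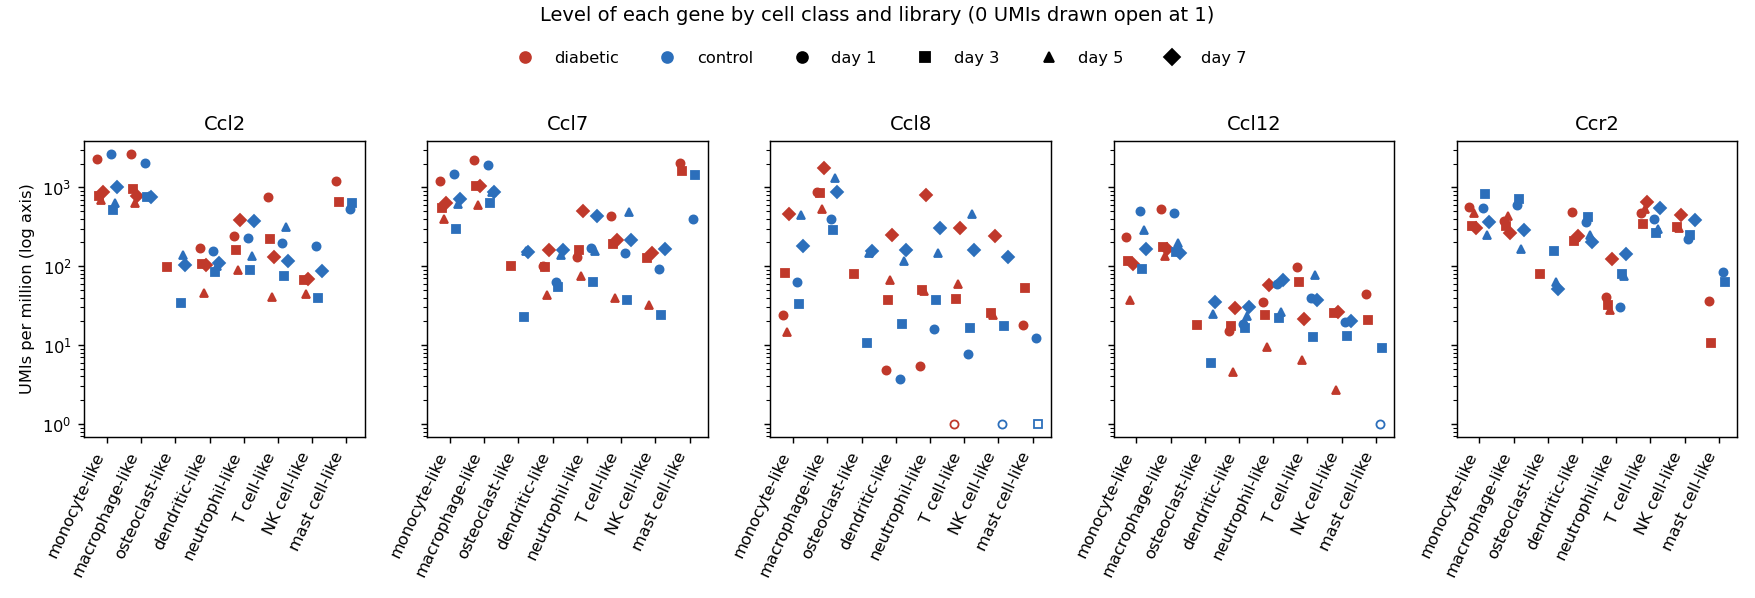
Level of each gene in CPM (log axis) in 8 cell classes, with 1 point for each library that has at least 20 cells of the class, red for diabetic and blue for control wounds, with the shape giving the day and 0 UMIs drawn as an open point at 1. Ccl8 reached 1750.2 CPM in macrophage-like cells, and Ccr2 in neutrophil-like cells stayed at or below 144 CPM.

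Ccl2, also known as monocyte chemoattractant protein 1, had a level of 2266, 776, 686 and 865 CPM in diabetic wounds and 2622, 509, 639 and 1000 CPM in control wounds in monocyte-like cells. In macrophage-like cells its level was 2621, 955, 633 and 781 CPM in diabetic wounds and 2005, 754, 774 and 747 CPM in control wounds. Both classes were highest on day 1 in both groups, and neither class was above the other throughout, since monocyte-like cells had the higher level in 4 of 8 libraries. T cell-like cells held 41.1 to 757 CPM, which was lower than in monocyte-like and in macrophage-like cells of the same library in 8 of 8 libraries, by a median of 6.76-fold and 6.21-fold. The highest T cell-like value, 757 CPM, came from the 111 T cell-like cells of diabetic day 1.

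With every cell thinned to 1000 UMIs, Ccl2 was seen in 24.6% to 64.0% of monocyte-like cells, in 30.3% to 67.2% of macrophage-like cells and in 3.39% to 19.2% of T cell-like cells. Without thinning the shares were 56.5% to 88.4%, 57.9% to 74.6% and 13.2% to 41.4%, at median depths of 6677 to 10789, 4485 to 10312.5 and 3401 to 4396.5 UMIs. Thinning left out 25 to 709 shallower cells of a library. The shares in both myeloid classes thus stood above the T cell-like share at equal depth.

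Ccl7, a ligand of CCR2 and other receptors, was higher in macrophage-like than in monocyte-like cells of the same library in 8 of 8 libraries, by a median of 1.57-fold. Its level was 2251, 1029.5, 593 and 1045 CPM in diabetic wounds and 1898, 624, 861 and 866 CPM in control wounds in macrophage-like cells and 1198, 547, 394 and 639.8 CPM in diabetic wounds and 1489, 295, 614 and 702 CPM in control wounds in monocyte-like cells. Like Ccl2 it was highest on day 1 in both. Macrophage-like cells were above T cell-like cells of the same library in Ccl7 in 8 of 8 libraries, by a median of 5.34-fold. Monocyte-like cells were above them in 8 of 8 too, by a median of 3.14-fold and by only 1.26-fold on control day 5. Their levels overlapped the T cell-like ones, so a part of the monocyte-like Ccl7 cannot be told apart from background. Ccl12, a further ligand of mouse CCR2, stood at 232, 117, 37.3 and 106 CPM in diabetic wounds and 497, 91.8, 287 and 163 CPM in control wounds in monocyte-like cells. In macrophage-like cells the level of Ccl12 was 532, 175, 133 and 165 CPM in diabetic wounds and 466, 153, 195 and 147 CPM in control wounds. It was lower than that of Ccl2 in every one of these 16 sums, and neither class was above the other throughout, with monocyte-like cells higher in 3 of 8 libraries. Both classes were above the T cell-like level of Ccl12 in each library.

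Ccl8 had its own pattern. In macrophage-like cells its level was 868, 838, 526 and 1750.2 CPM in diabetic wounds and 398, 286, 1296 and 876 CPM in control wounds, with its highest value on day 7 in diabetic and on day 5 in control wounds. In monocyte-like cells it was 24.4, 81.3, 14.6 and 456 CPM in diabetic wounds and 63.1, 32.9, 450.5 and 178 CPM in control wounds, which was below the macrophage-like level of the same library in 8 of 8 libraries, by a median of 7.50-fold. T cell-like cells held 0 to 453 CPM, and monocyte-like cells were above them in 6 of 8 libraries only, so a part of the monocyte-like Ccl8 cannot be told apart from background. Macrophage-like cells were above them in 8 of 8.

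The proportion of Ccl8 to Ccl2 in a library was alike between classes on some days and not on others. On diabetic day 7, T cell-like cells held 235 Ccl8 UMIs for every 100 Ccl2 UMIs, dendritic-like cells 239.9, neutrophil-like cells 209 and macrophage-like cells 224, with 356 in NK cell-like and 52.7 in monocyte-like cells. On diabetic day 1, macrophage-like cells held 33.1 and T cell-like, dendritic-like, neutrophil-like and monocyte-like cells 0, 2.81, 2.24 and 1.08. In dendritic-like cells the level of Ccl2 was 45.7 to 171 CPM, of Ccl7 42.9 to 163 CPM, of Ccl8 3.74 to 249 CPM and of Ccl12 4.54 to 30.4 CPM. These overlapped the T cell-like levels, with dendritic-like cells the higher in 2, 2, 4 and 2 of 8 libraries, so the ligand RNA in them cannot be told apart from background. NK cell-like cells were above T cell-like cells in 1, 0, 1 and 2 of 6 libraries, and osteoclast-like cells, which carry the markers Ctsk and Acp5, in 0, 0, 1 and 0 of 4. In 4 libraries with at least 20 of them, osteoclast-like cells held 34.6 to 140.2 CPM of Ccl2, below the macrophage-like level of the same library by at least 5.52-fold, and all 4 ligands were lower there in 4 of 4 libraries.

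Mast cell-like cells, 148 in all, were a further place of Ccl7. In the 4 libraries with at least 20 of them, which were those of days 1 and 3, the level of Ccl7 was 2034 and 1593 CPM in diabetic and 402 and 1419.9 CPM in control wounds. That of Ccl2 was 1197 and 660.1 CPM in diabetic and 536 and 628 CPM in control wounds. Both genes were above the T cell-like level in 4 of 4 libraries, Ccl7 by a median of 6.57-fold, whereas Ccl12 was below it in 4 of 4. Each of these sums rests on 24 or 25 cells. In fibroblast-like cells, of which only the library of control day 7 had at least 20, Ccl2 stood at 1123 CPM and Ccl7 at 662 CPM.

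Ccr2 was at 569, 322, 476 and 306 CPM in diabetic wounds and 541, 831, 247 and 367 CPM in control wounds in monocyte-like cells. In T cell-like cells, where CCR2 is known on activated and tissue-homing subsets, its level was 477, 346, 529 and 660.2 CPM in diabetic wounds and 393, 267, 299.8 and 545 CPM in control wounds. Macrophage-like cells had 375, 319, 432 and 260.1 CPM in diabetic wounds and 594, 711, 163 and 287 CPM in control wounds. The levels of these 3 classes overlapped, and that of dendritic-like cells, 201 to 488 CPM, and of NK cell-like cells, 224 to 451 CPM, overlapped with them too. Neutrophil-like cells had 28.2 to 144 CPM, and every other of these classes was above them in each library, monocyte-like cells by a median of 10.2-fold. At 1000 UMIs per cell, Ccr2 was seen in 19.4% to 47.6% of monocyte-like, 17.9% to 35.1% of T cell-like and 1.501% to 5.88% of neutrophil-like cells. Unthinned, these shares were 59.3% to 87.9%, 40.6% to 58.1% and 4.03% to 18.1%.

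Levels also differed between the clusters of a class, which were made without these genes. Among the 3 macrophage-like clusters, that led by Retnla and Lyve1, genes known from resident macrophages along vessels, had the most Ccl8. On days 3, 5 and 7 its level of Ccl8 was 4259, 5919.5 and 4269 CPM in diabetic and 2525, 7616 and 3689.6 CPM in control wounds, and the value of diabetic day 5 rests on 20 cells. The cluster led by Ms4a7 and Fcrls had 383, 313 and 1143 CPM and 136, 649 and 507 CPM, and that led by Igf1 and Gdf15 had 149, 285 and 1523 CPM and 246, 977 and 732 CPM. No value of the first cluster overlapped with those of the other clusters over these 6 libraries, and its median excess in the same library was 11.4-fold over the cluster led by Ms4a7 and 9.02-fold over that led by Igf1. With 10.6% of macrophage-like cells, it held 38.9% of their Ccl8 UMIs. By library it held 86.1, 61.2, 43.3 and 22.7% in diabetic and 60, 53.4, 53.7 and 21.6% in control wounds on days 1, 3, 5 and 7. The day 1 values rest on 13 diabetic and 15 control cells of this cluster.

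Ccl2 and Ccl12 were also higher in the Retnla and Lyve1 cluster in 6 of 6 libraries. Its level of Ccl2 was 1145, 1590.3 and 2165 CPM in diabetic and 1130.0, 1524 and 1958 CPM in control wounds, by a median of 2.16-fold above the Ms4a7 and Fcrls cluster. The median excess of Ccl12 over that cluster was 3.80-fold and of Ccl7 1.95-fold, though the levels of Ccl7 overlapped between libraries. Ccr2 ran the other way. The Retnla and Lyve1 cluster was below the Igf1 and Gdf15 cluster in 5 of 6 libraries and below the Ms4a7 and Fcrls cluster in 4 of 6, with 93.4, 265 and 115 CPM in diabetic and 758, 165 and 247 CPM in control wounds.

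**Figure D2:**
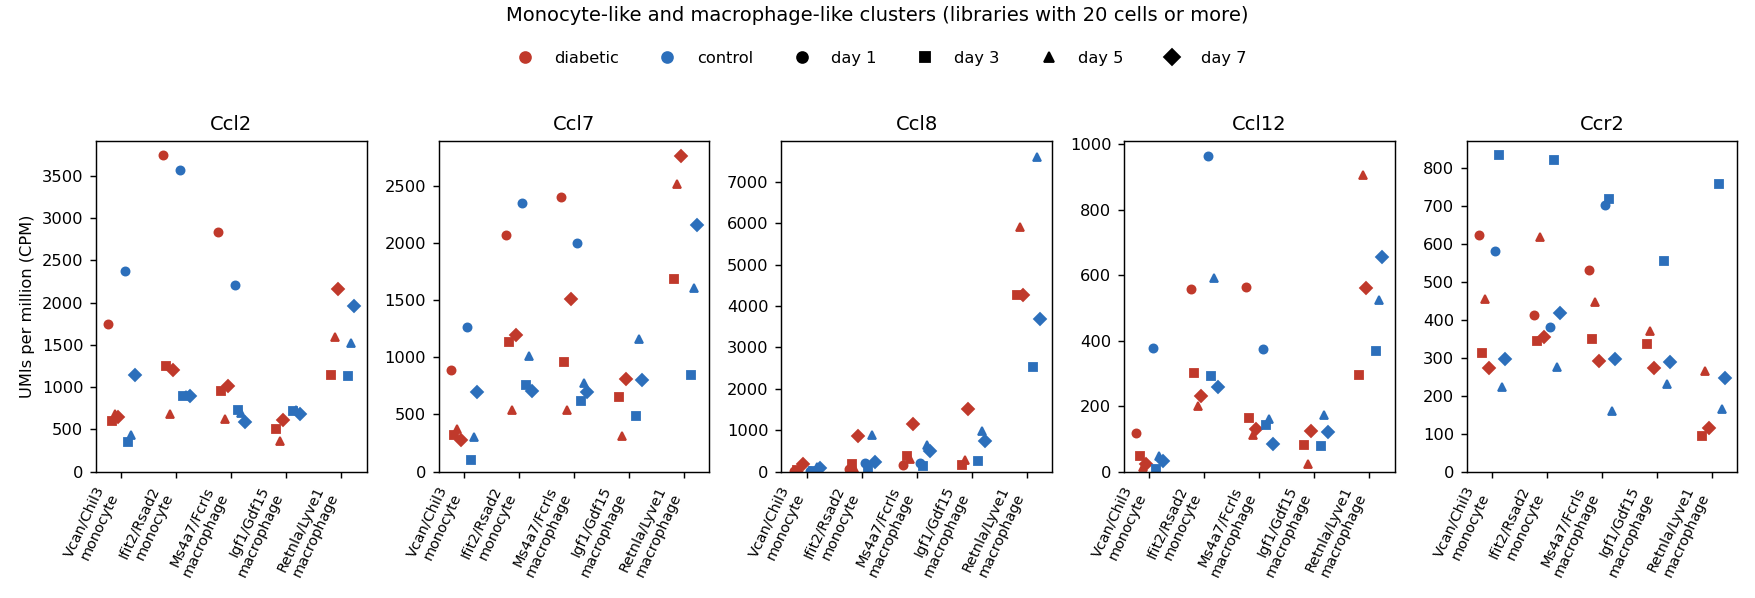
Level of each gene in CPM (linear axis) in the clusters of monocyte-like and macrophage-like cells, named by their leading genes, with 1 point for each library that has at least 20 cells of the cluster, red for diabetic and blue for control wounds and with the shape giving the day. The Retnla and Lyve1 cluster lies above the other macrophage-like clusters in Ccl8, with 2525 to 7616 CPM, and the monocyte-like cluster led by Ifit2 lies above that led by Vcan in Ccl12 in each library.

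Monocyte-like cells formed a cluster led by Vcan and Chil3 and a cluster led by Ifit2 and Rsad2, which are interferon-induced genes. Ccl12 was higher in the latter in 8 of 8 libraries, by a median of 8.99-fold. Its level there was 557, 301, 199.8 and 230.2 CPM in diabetic wounds and 962, 291, 590.2 and 259 CPM in control wounds, against 117, 46.4, 14.3 and 23.9 CPM and 378, 9.08, 46.8 and 31.1 CPM in the Vcan and Chil3 cluster. The cluster led by Ifit2 and Rsad2 was 28.5% of monocyte-like cells and held 53.9% of their Ccl12 UMIs. By library this share of Ccl12 ran from 39.3% on control day 1 to 93.0% on control day 3. Ccl8 and Ccl7 were also higher in it in 8 of 8 libraries, by medians of 5.29-fold and 2.83-fold, and Ccl2 in 6 of 8, by 1.97-fold. Ccr2 was higher there in 5 of 8 libraries, by 1.17-fold. Among dendritic-like cells, Ccr2 was higher in the cluster led by Cd209a and Klrb1b, with 543, 248, 291 and 284 CPM in diabetic wounds and 477, 496, 307 and 235 CPM in control wounds. The cluster led by Fscn1 and Ccl22, genes of mature dendritic cells, had 0 to 55.0 CPM, with no overlap. Among T cell-like cells, the cluster led by Trdc and Il17f, genes of gamma delta T cells, was above that led by Ctla4 and Trac in Ccr2 in 7 of 8 libraries.

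Because classes differ in size and in RNA per cell, the class with the highest level need not be the main source of a gene. Summed over libraries, 46.8% of Ccl2 UMIs lay in monocyte-like and 37.0% in macrophage-like cells. For Ccl7 these shares were 32.2% and 49.1%, for Ccl12 39.5% and 45.6%, and for Ccl8 3.87% and 78.9%. Ccr2 UMIs lay in monocyte-like (33.7%), macrophage-like (30.9%), dendritic-like (11.2%) and T cell-like cells (11.1%). Neutrophil-like cells were 39.5% of all cells and held 7.51% of Ccl2 and 4.90% of Ccr2 UMIs.

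Most Ccl2 lay in monocyte-like cells on day 1 and in macrophage-like cells on day 7, in both groups. Monocyte-like cells held 83.1, 38.0, 55.7 and 16.04% of Ccl2 UMIs in diabetic wounds on days 1, 3, 5 and 7 and 87.0, 24.5, 4.08 and 2.94% in control wounds. Macrophage-like cells held 3.76, 44.3, 24.5 and 54.9% and 3.76, 53.3, 82.1 and 75.6%. In diabetic wounds the monocyte-like share was higher on day 5 than on day 3, and on day 5 it stood above that of the control library, as did the share of monocyte-like among all cells, 12.4% against 2.84%. The monocyte-like share of Ccr2 UMIs was 76.1, 36.5, 37.3 and 8.75% in diabetic and 80.8, 29.5, 5.42 and 2.23% in control wounds, and on day 7 T cell-like cells held 33.0% in diabetic and 14.7% in control wounds. Each group and day has only 1 library, so the spread of these shares between wounds is not known.

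**Figure D3:**
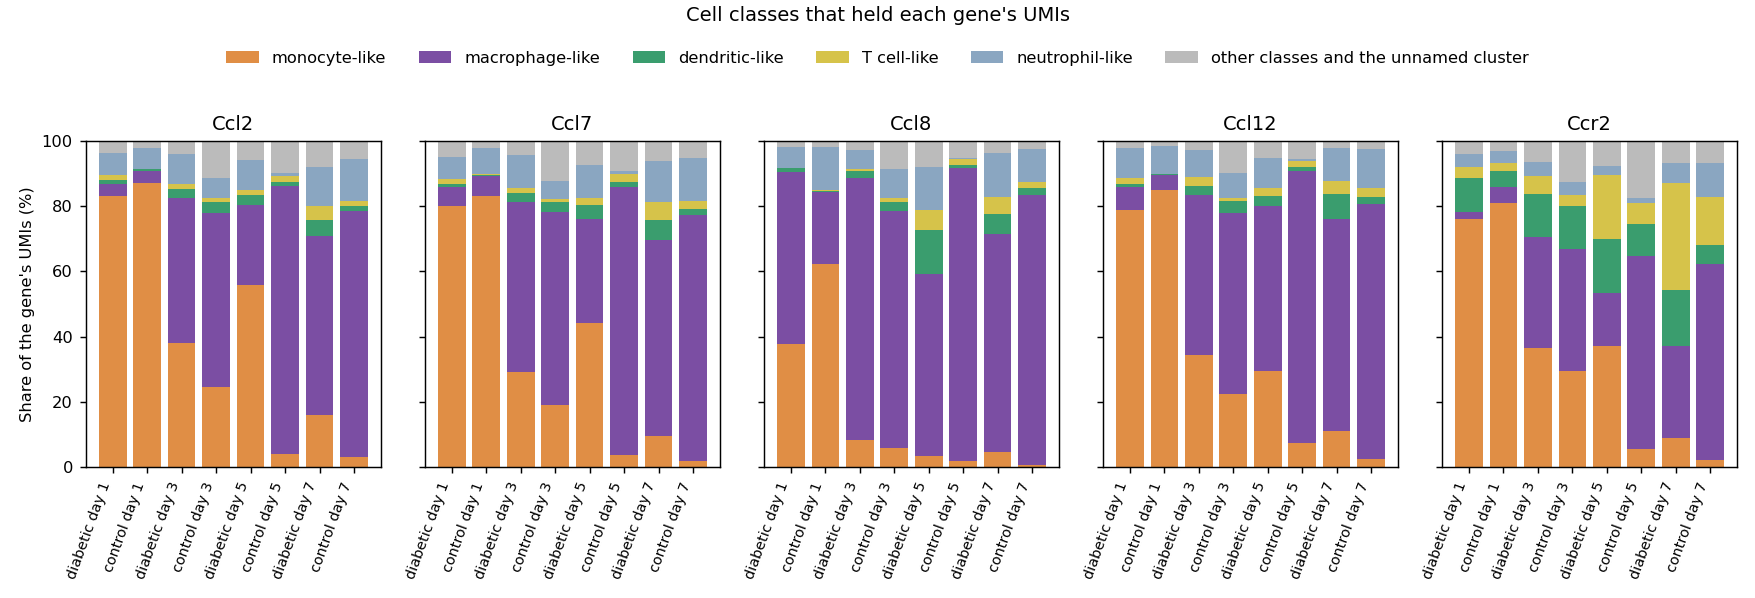
Share of the UMIs of each gene that lay in 5 cell classes, with the other classes and the unnamed cluster as 1 part, in percent, for each library (stacked bars that add to 100). Monocyte-like cells hold most of Ccl2, Ccl7 and Ccl12 on day 1 and macrophage-like cells from day 3 on in control wounds, while Ccl8 lies mainly in macrophage-like cells in 7 of 8 libraries.

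Over all cells of a library, the course of each gene reflects both the levels in the cells and the make-up of the wound. Ccl2 had 1308, 494, 283 and 470.5 CPM in diabetic wounds and 1459, 352, 549 and 550.4 CPM in control wounds, with both day 1 libraries highest. Ccl8 had 31.0, 239, 103 and 869 CPM in diabetic wounds and 49.2, 97.96, 841 and 588 CPM in control wounds, with both day 1 libraries lowest. Ccl8 rose over days in the test of a slope common to both groups, by a log2 of 0.61 per day (SE 0.138, edgeR adjusted p = 0.0335). Of all genes tested, 10.3% changed over days and 3.45% rose, so 1 rising gene of 5 is read against that background. Macrophage-like cells, with 78.9% of Ccl8 UMIs, were 1.53, 13.3, 6.92 and 26.2% of diabetic and 2.09, 14.1, 51.5 and 49.1% of control cells. Within them the slope of Ccl8 was 0.21 (edgeR adjusted p = 0.294). With class shares of UMIs fixed, chosen after seeing the data, Ccl8 had 252, 265, 184 and 875 CPM in diabetic wounds and 131, 99.3, 544 and 388 CPM in control wounds. Classes with under 20 cells in a library were left out of its value. The part of make-up in the slope over all cells was not tested. Over all cells the median mitochondrial share went from 0.738% on day 1 to 2.17% on day 7 in diabetic and from 0.399% to 2.14% in control wounds, and the summed level of 10 genes induced by tissue handling from 3660.5 to 6005 CPM and from 3890.2 to 10083 CPM, and their part in the slope was not tested. The call was lost without 4 of the 8 libraries: diabetic day 1 (adjusted p = 0.135), diabetic day 7 (0.165), control day 1 (0.170) and control day 7 (0.0565).

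Ccl2 over all cells had a slope of -0.31 per day on the log2 scale (edgeR adjusted p = 0.0553), which missed the threshold of 0.05, though it passed by DESeq2 (0.00859), with low-count genes kept (0.0395) and without control day 3 (0.0347). For Ccl12 the slope was -0.26 (adjusted p = 0.102, and 0.0444 by DESeq2), for Ccl7 -0.14 (0.307) and for Ccr2 -0.14 (0.184). Ccl7 had 719, 454, 205 and 578 CPM in diabetic wounds and 866, 263, 609 and 639 CPM in control wounds, and Ccl12 had 141, 82.1, 29.04 and 83.9 CPM in diabetic wounds and 283, 68.9, 136 and 105 CPM in control wounds. Ccr2 had 359, 214, 293 and 305 CPM in diabetic wounds and 324, 476, 159.8 and 266 CPM in control wounds. The split of all genes called over days turned with the scaling, from 460 rising and 918 falling with TMM to 1897 rising and 483 falling with library size alone, and the slope of Ccl8 was 0.70 with library size alone.

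Within macrophage-like cells Ccl2 fell over days, by a log2 of 0.25 per day (SE 0.0516, edgeR adjusted p = 0.0499), where 0.706% of all genes changed and 0.16% fell. This call stood at the threshold and was lost without any of 6 libraries: diabetic day 1 (adjusted p = 0.280), day 3 (0.0719), day 5 (0.0591) and day 7 (0.209), and control day 1 (0.273) and day 7 (0.0873). Ccl12 had nearly the same slope, -0.25 (SE 0.0561), with an adjusted p of 0.068 by edgeR, and it passed in 5 of 10 other settings (adjusted p from 0.00124 to 0.104) and without control day 3 (0.0174). The slopes of Ccl7, Ccl8 and Ccr2 in these cells were -0.17, 0.21 and -0.16, with adjusted p values from 0.260 to 0.452. With low-count genes kept, Ccl7 (0.0381) and Ccl8 (0.0205) passed too. The 2 day 1 libraries held only 73 and 92 macrophage-like cells. The cluster with most macrophage-like cells was that led by Ms4a7 and Fcrls on days 1, 3 and 5 and that led by Igf1 and Gdf15 on day 7, in both groups. Fibroblast markers, of which 0 of 7 were at 0, summed to 353 CPM in diabetic and 601 CPM in control macrophage-like cells on day 7, against 29.1 to 92.4 CPM on the days before. Neutrophil markers, of which 0 of 8 were at 0, were highest on day 1 like Ccl2, at 3217, 2263, 1488 and 1147 CPM in diabetic and 2898, 1489, 294 and 1450.2 CPM in control macrophage-like cells. T cell markers, with 0 of 8 at 0, went from 134 CPM on day 1 to 489 CPM on day 7 in diabetic and from 89.3 to 298 CPM in control cells, and dendritic markers, with 0 of 11 at 0, went from 5429 to 10626 CPM and from 4505 to 6998 CPM. Monocyte markers, with 0 of 8 at 0, were also highest on day 1 in control cells, at 5169 CPM against 1994 to 3265 CPM later, and stood at 3118 to 3926 CPM in diabetic cells. The part of these markers in the slopes was not tested.

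In monocyte-like cells none of the 5 genes passed the test over days by edgeR, where 1.16% of all genes did. The largest slopes were those of Ccl8, 0.54 per day on the log2 scale (adjusted p = 0.127), and Ccl2, -0.23 (adjusted p = 0.186). All 5 genes had unadjusted p values from 0.00473 to 0.0473 here. Ccl12 had a slope of -0.23, Ccl7 of -0.17 and Ccr2 of -0.15, so the 4 other genes shared the falling sign. These results turned with the setting. Ccl12 passed in 6 of 10 other settings, with slopes of -0.22 to -0.61 and adjusted p values of 0.00546 to 0.555. Ccl2 passed in 2 of 10 (0.000956 to 0.407) and without control day 3 (0.0414). Ccl7, Ccl8 and Ccr2 passed in 1 of 10, with low-count genes kept. Markers of other classes moved with the day in these cells. Macrophage markers went from 3221 CPM on day 1 to 8406 CPM on day 7 in diabetic and from 4486 to 10712 CPM in control cells, dendritic markers from 1728 to 8880.0 CPM and from 1189.8 to 7304 CPM, fibroblast markers from 10.6 to 219.7 CPM and from 7.47 to 371 CPM, and neutrophil markers from 3249 to 1026 CPM and from 3080.1 to 1367 CPM. None of the markers of these 4 lists was at 0, and their part in the slopes was not tested. Day 7 rests on 208 diabetic and 59 control monocyte-like cells.

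**Figure D4:**
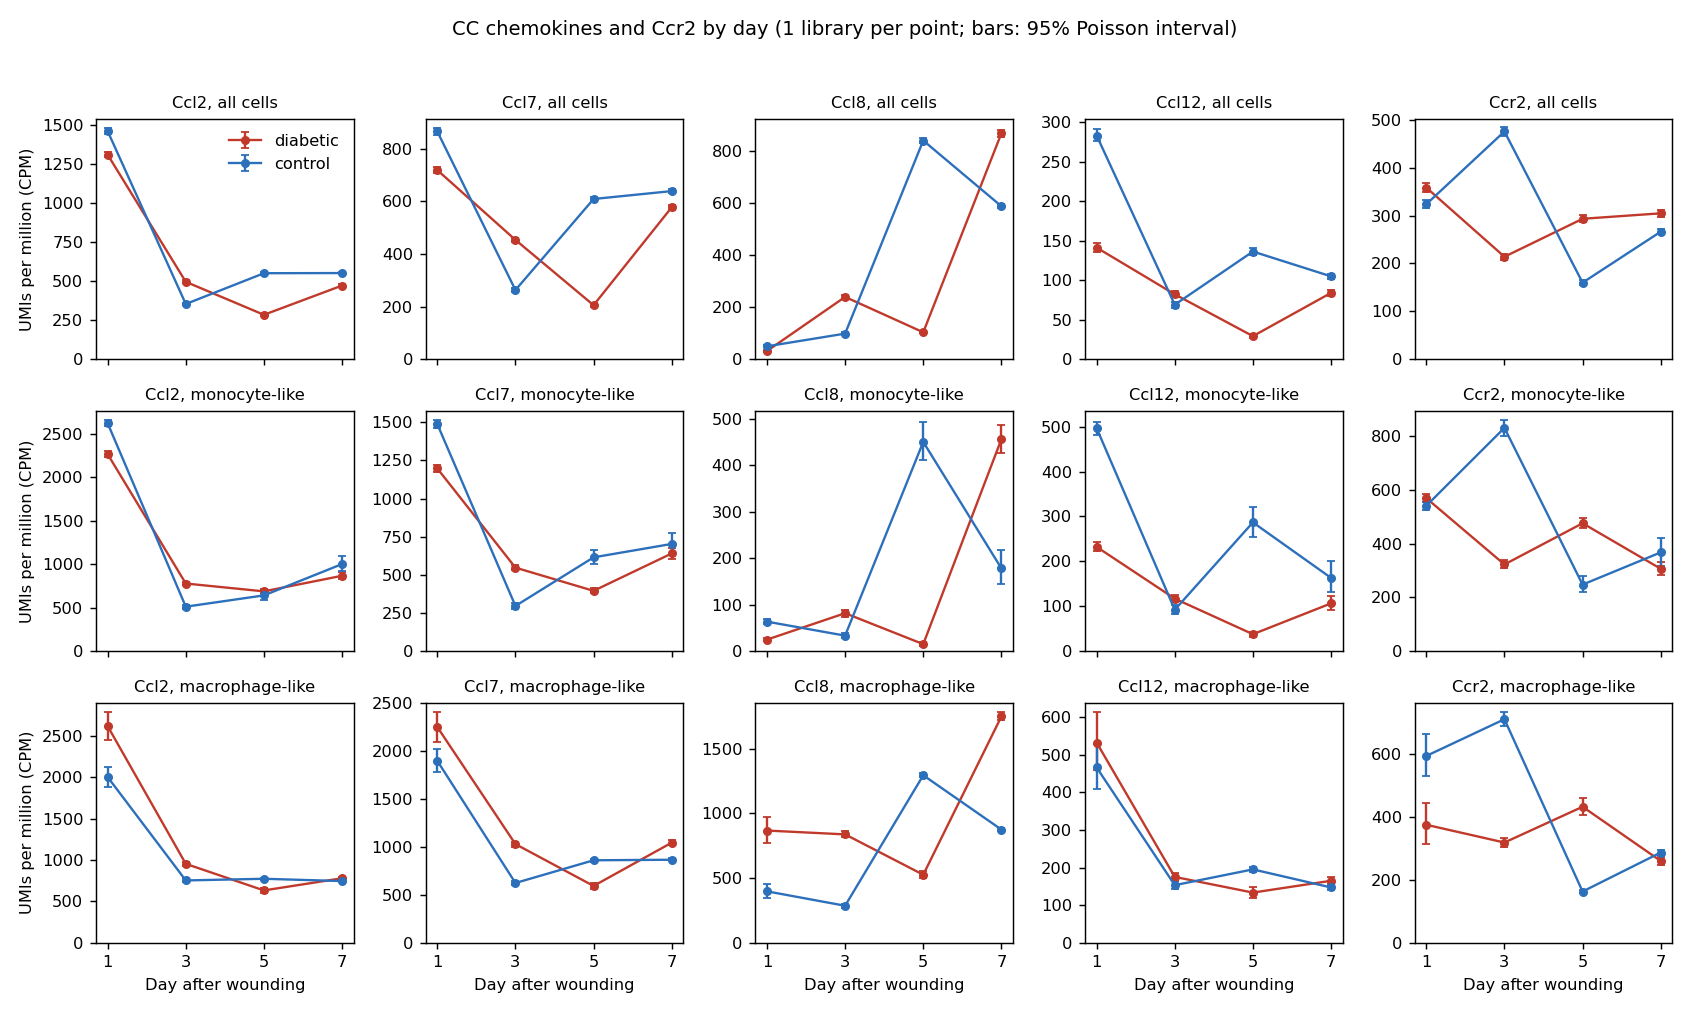
Level of each gene in CPM (linear axis from 0) against the day after wounding, over all cells and in monocyte-like and macrophage-like cells, with 1 point per library, exact 95% Poisson intervals as bars and lines that join the days of a group. Ccl2 is highest on day 1 in each panel, and Ccl8 over all cells is lowest there, at 31.0 CPM in diabetic and 49.2 CPM in control wounds.

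Diabetic and control wounds differed on single days in opposite directions, and no gene of the 5 passed the test of the groups over the 4 days. Over all cells, the diabetic to control difference was -0.18 for Ccl2, -0.26 for Ccl7, -0.35 for Ccl8, -0.78 for Ccl12 and 0.06 for Ccr2 on the log2 scale, with SE of 0.23 to 0.68 and edgeR adjusted p values of 0.467 to 0.950. Here 0% of all genes passed (0 of 13857 by edgeR, with 1521 at an unadjusted p under 0.05 and 83 calls by DESeq2). Within monocyte-like, macrophage-like and dendritic-like cells 0 of the 5 genes passed, where 0.0491%, 0.018% and 0.0298% of all genes did. A course over days that differed between the groups was called for 0 of the 5 in all cells, monocyte-like and macrophage-like cells, where 0%, 0% and 0% of all genes were (0 by edgeR, with 240, 181 and 228 at an unadjusted p under 0.05, and 6, 0 and 0 calls by DESeq2). On simulated data this last test found only 39.5%, 31.5% and 36.5% of genes given a true log2 change of 0.5 per day. Those data had a single dispersion for all genes and no other change between days.

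Over all cells the differences on each single day were larger than counting error, which is all that the intervals here cover, and they were largest on day 5 for the 4 ligands. The control library of that day lost 28.5% of its barcodes to the filter, against 10.6% in the diabetic one, and its cells had a median of 8219 UMIs against 3566. Its tissue handling genes summed to 7709 CPM over all cells against 4850 CPM, and the part of these in the differences was not tested. The diabetic to control ratio that day was 0.123 (95% interval 0.117 to 0.128) for Ccl8, 0.213 (95% interval 0.195 to 0.232) for Ccl12, 0.337 (95% interval 0.326 to 0.348) for Ccl7 and 0.516 (95% interval 0.501 to 0.531) for Ccl2. Ccr2 went the other way on that day, with a ratio of 1.84 (95% interval 1.77 to 1.91). On day 3 all 4 ligands were higher in the diabetic library, Ccl8 with a ratio of 2.44 (95% interval 2.32 to 2.57) and Ccl7 with 1.73 (95% interval 1.67 to 1.78), and Ccr2 was lower, with 0.45 (95% interval 0.435 to 0.465). On days 3 and 5 the ligands and the receptor thus differed in opposite directions, and both directions turned between these days.

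**Figure D5:**
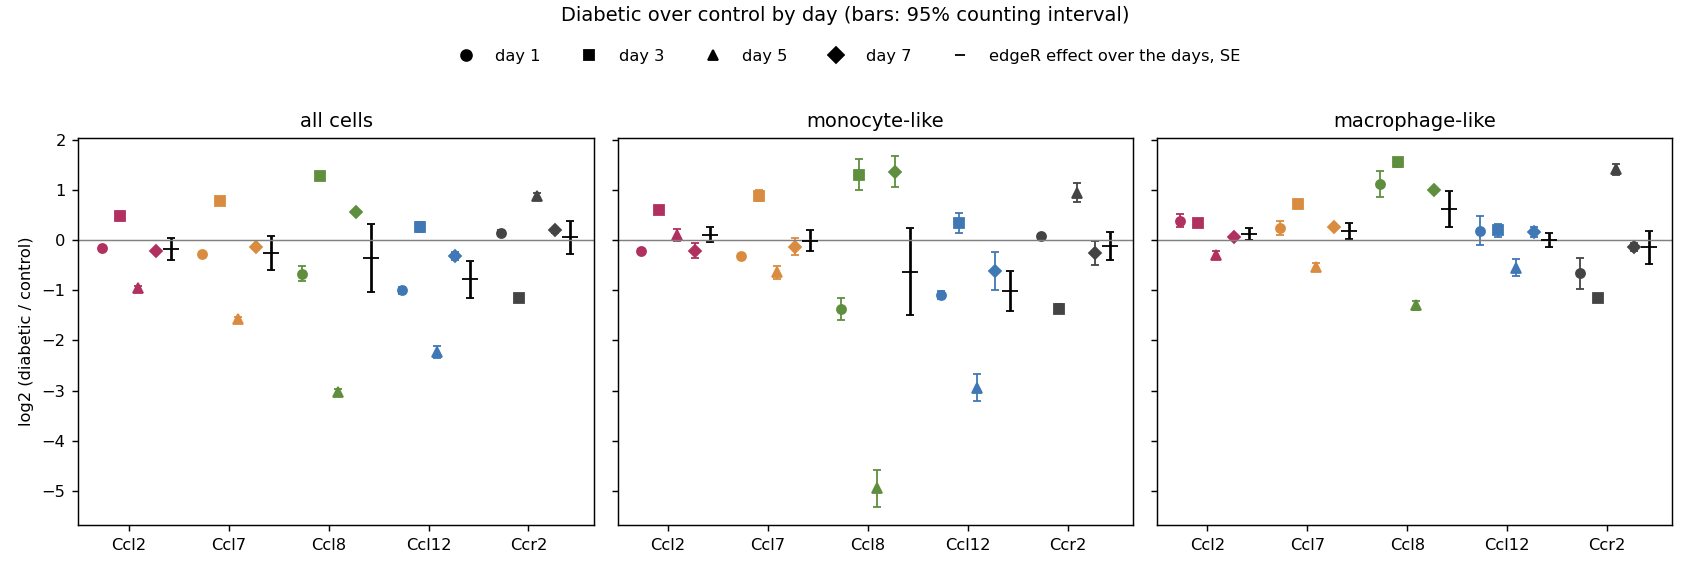
Diabetic to control log2 ratio of each gene by day, over all cells and in monocyte-like and macrophage-like cells, with exact 95% intervals that cover counting error only and a line at 0 for equal levels, and the edgeR difference over the 4 days in black with its SE. Ccl8 in macrophage-like cells lies above 0 on days 1, 3 and 7 and below it on day 5, at -1.300.

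The make-up of the wounds differed as well. On day 5 macrophage-like cells were 51.5% of control and 6.92% of diabetic cells. When the class shares of UMIs were fixed at common values, an alternative chosen after seeing the data, the log2 ratio of Ccl8 on day 5 went from -3.03 to -1.56, of Ccl7 from -1.57 to -0.68, of Ccl12 from -2.23 to -1.39 and of Ccl2 from -0.96 to -0.18. That of Ccr2 stayed near, at 0.83 against 0.88. On day 3 the log2 ratios at equal shares were 0.48 for Ccl2, 0.82 for Ccl7, 1.42 for Ccl8, 0.27 for Ccl12 and -1.10 for Ccr2, each close to its value over all cells. Classes with under 20 cells in a library were left out of its value and the other shares scaled up. The 2 libraries of a day thus kept the same classes on day 3 only. On days 1 and 7 several signs turned at these shares. Those of Ccl2 went from -0.16 to 0.15 and from -0.23 to 0.012, of Ccl7 from -0.27 to 0.080 and from -0.15 to 0.19, and of Ccr2 from 0.15 to -0.11 and from 0.19 to -0.028. On day 7 osteoclast-like and fibroblast-like cells entered the control value (33 and 23 cells) but not the diabetic one (2 and 8 cells). The turn of Ccl2 on day 7 cannot be told apart from this difference in classes. Ccl8 went from -0.67 to 0.94 on day 1. The other signs held on these days. Ccl12 became smaller in size, at -0.28 on day 1 and -0.12 on day 7, and Ccl8 larger on day 7, at 1.17.

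Ccl8 in macrophage-like cells was higher in the diabetic library on days 1, 3 and 7, with ratios of 2.18 (95% interval 1.82 to 2.61), 2.93 (95% interval 2.76 to 3.11) and 1.999 (95% interval 1.95 to 2.05), and lower on day 5, with 0.406 (95% interval 0.383 to 0.43). Over the 4 days the difference was 0.63 on the log2 scale (SE 0.361, edgeR adjusted p = 0.66). Without day 5 it was 1.20 (adjusted p = 0.00247), and with all low-count genes kept in the edgeR fit it was 0.61 (adjusted p = 0.000312). Over the other settings the adjusted p of this difference was 0.431 to 0.992. The Retnla and Lyve1 cluster, the one richest in Ccl8, was 17.8, 19.3, 6.90 and 9.71% of diabetic and 16.3, 9.57, 14.5 and 5.73% of control macrophage-like cells, with 13, 140, 20 and 93 diabetic and 15, 65, 244 and 131 control cells. The part of this make-up in the result was not tested. Within that cluster the ratios of Ccl8 on days 3, 5 and 7 were 1.69 (95% interval 1.56 to 1.83), 0.777 (95% interval 0.711 to 0.848) and 1.16 (95% interval 1.101 to 1.22), with only 20 diabetic cells on day 5. They were 2.83, 0.483 and 2.26 in the Ms4a7 and Fcrls cluster and 0.605, 0.292 and 2.08 in the Igf1 and Gdf15 cluster. In these cells the summed level of 10 genes induced by tissue handling, such as Fos and Hspa1a, was higher in the control library on every day, at 11591, 11871, 9927 and 11934 CPM against 10679, 8826, 7638 and 8039.8 CPM, and the part of this in the result was not tested.

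The other genes in macrophage-like cells had log2 ratios on days 1, 3, 5 and 7 of 0.39, 0.34, -0.29 and 0.06 for Ccl2, 0.25, 0.72, -0.54 and 0.27 for Ccl7 and 0.19, 0.19, -0.55 and 0.16 for Ccl12. All 3 shared the sign of Ccl8 on each day, positive on days 1, 3 and 7 and negative on day 5, with smaller sizes. Within the Retnla and Lyve1 cluster the log2 ratios on days 3, 5 and 7 were 0.02, 0.06 and 0.14 for Ccl2, 0.998, 0.65 and 0.35 for Ccl7 and -0.32, 0.79 and -0.23 for Ccl12, where day 5 again rests on 20 diabetic cells. The interval of Ccl12 on day 1 included equal levels. Ccr2 had log2 ratios of -0.66, -1.16, 1.41 and -0.14, the opposite sign to the ligands on each day. Markers of other classes differed between the groups in these cells as well. Monocyte markers, with 0 of 8 at 0, summed to 3623, 3118, 3926 and 3770.2 CPM in diabetic and 5169, 3208, 1994 and 3265 CPM in control macrophage-like cells. On day 5 dendritic markers stood at 10174 against 4901 CPM and neutrophil markers at 1488 against 294 CPM, and the part of these markers in the ratios was not tested. Over the 4 days the differences were 0.12 for Ccl2, 0.18 for Ccl7 and -0.14 for Ccr2, with edgeR adjusted p values of 0.804 to 0.938.

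In monocyte-like cells Ccl12 had the largest difference over the 4 days, -1.01 on the log2 scale (SE 0.395, unadjusted p = 0.0263, edgeR adjusted p = 0.513), and it was lower in the diabetic library on 3 of 4 days, with log2 ratios of -1.10, 0.35, -2.94 and -0.62. With all low-count genes kept the adjusted p of Ccl12 was 4.6e-06, and over the other settings it was 0.173 to 0.839. Without day 5 the difference was -0.42. The summed level of the 10 tissue handling genes was higher in control monocyte-like cells on every day, at 2836, 5442, 4923 and 5163 CPM against 2555, 2995, 3487 and 3639 CPM, and its part in this difference was not tested. Ccl8 had log2 ratios of -1.37, 1.304, -4.95 and 1.36, and its day 5 value compares 72 with 465 UMIs. On day 5 this Ccl8 level was not above the T cell-like level in either library. Diabetic monocyte-like cells held 3.26% of Ccl8 UMIs with 23.0% of all UMIs, against 6.20% with 10.9% in T cell-like cells. In control wounds these shares were 1.88% with 3.51% and 1.81% with 3.37%. The day 5 ratio thus cannot be told apart from background. Ccl2 had log2 ratios of -0.21, 0.61, 0.10 and -0.21, Ccl7 -0.31, 0.89, -0.64 and -0.13 and Ccr2 0.07, -1.37, 0.94 and -0.26, so that Ccr2 again stood opposite to Ccl8 on each of the 4 days, with Ccl8 at background on day 5. The intervals of Ccl2 on day 5 and of Ccl7 on day 7 included equal levels.

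On day 7 different clusters held most monocyte-like cells in the groups, and on day 5 their shares differed. The Vcan and Chil3 cluster was 83.8% and 59.6% of diabetic monocyte-like cells on days 5 and 7, and 54.8% and 42.4% of control ones, where the Ifit2 and Rsad2 cluster, the one richer in Ccl12 and Ccl8, made up 45.2% and 57.6%. Control day 5 had 93 and control day 7 59 monocyte-like cells. Macrophage markers, of which 0 of 10 were at 0, summed to 3221, 9028, 5238 and 8406 CPM in diabetic monocyte-like cells on days 1, 3, 5 and 7. In control ones they summed to 4486, 6198, 14308 and 10712 CPM. They were lower in the diabetic library on days 1, 5 and 7 and higher on day 3. Ccl12 had the same signs, while Ccl8 was higher in the diabetic library on day 7. The part of these markers in the monocyte-like Ccl8 and Ccl12 was not tested.

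Within single macrophage-like cells Ccl7 and Ccl12 were seen more often beside Ccl2, and Ccr2 less often beside Ccl8. At 1000 UMIs per cell, Ccl7 was seen in 41.0% to 75.6% of macrophage-like cells with Ccl2 and in 12.6% to 35.0% of those without it, and it was higher with Ccl2 in 8 of 8 libraries. In monocyte-like cells these shares were 33.0% to 55.5% and 8.38% to 30.6%, again higher in 8 of 8. Ccl12 was seen more often with Ccl2 in 8 of 8 libraries in macrophage-like and in 7 of 8 in monocyte-like cells. Ccr2 was seen less often in macrophage-like cells with Ccl8 than in those without it in each of the 6 libraries that could be compared, at 9.34% to 21.8% against 13.6% to 41.8%. This split mixes clusters that differ in both genes. In these libraries the Retnla and Lyve1 cluster had Ccl8 in 34.4% to 79.7% and Ccr2 in 4.76% to 34.4% of cells. The Ms4a7 and Fcrls cluster had them in 5.69% to 40.8% and 11.9% to 41.2%. The part of the clusters in this result was not tested. With Ccl2, Ccr2 was seen more often in 5 of 8 libraries in macrophage-like and in 1 of 8 in monocyte-like cells, so no common direction was seen. In dendritic-like cells Ccr2 was seen more often with Ccl8 in 2 of 3 libraries, such as control day 7 with 27.1% against 13.48%, and Ccl12 more often with Ccl2 in 2 of 6. In osteoclast-like cells of control day 5, the only such library compared, Ccr2 was seen in 8.82% of cells with Ccl8 and 5.36% of those without it. On control day 7, Ccl8 was seen in 17.3% of dendritic-like and 15.2% of T cell-like cells. On control day 5 it was seen in 13.2% of osteoclast-like and 17.2% of T cell-like cells. A split by Ccl8 in dendritic-like or osteoclast-like cells can thus sort them by background, and nothing is concluded from it. All these shares describe cells that share a library and a depth.

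Across 55 sums of a class in a library, log2 levels of Ccl2 and Ccl7 had a Pearson correlation of 0.93, of Ccl2 and Ccl12 of 0.81 and of Ccl7 and Ccl12 of 0.75. Ccl8 correlated less, with 0.57 for Ccl12, 0.49 for Ccl7 and 0.35 for Ccl2, and Ccr2 had 0.02 to 0.36 with the ligands. These sums share libraries and background RNA, and the values describe likeness only. Among 10096 genes with enough counts, the 5 most like Ccl2 were Slc7a8 (0.84), Cd93, Nupr1, Klf6 and Pdpn, and those most like Ccl7 were Slc7a8 (0.86), Pmp22, Cd93, Ecm1 and Plau. Ccl8 was most like Gdf15 (0.89), Igf1, C1qc, Gdpd1 and C1qb. Ccl12 was most like Cacna1d (0.91), F13a1, Ednrb, Msr1 and Rgl1, and Ccr2 most like Ly6e (0.83), H2-M3, Mndal, Shisa5 and Ago3. Pdpn is among the markers that named monocyte-like cells, and C1qb and C1qc are among those that named macrophage-like cells.

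The other 20 genes of the CC chemokine axis, 9 ligands, 7 receptors and 4 genes that act downstream or in feedback, were followed as a list. Over all cells, 0 of the 19 tested rose and 3 fell over days by edgeR, with a median slope of -0.09 against 0.02 for all genes. Of all genes tested 6.89% fell over days, which was 918 genes, or 483 with library size alone. The 3 genes of the list that fell were Ccl4, an inflammatory CC chemokine, by 0.33 per day on the log2 scale (adjusted p = 0.0435), Ccl6, a ligand of CCR1, by 0.32 (0.0391), and Ccr1, a receptor that shares Ccl7 with Ccr2, by 0.28 (0.0335). All 3 calls were lost without diabetic day 1, diabetic day 7, control day 1 or control day 7, and those of Ccl4 and Ccl6 also without diabetic day 5 (adjusted p up to 0.228 for Ccl4, 0.243 for Ccl6 and 0.186 for Ccr1). In monocyte-like cells 0 of 15 rose and 1 fell, Ccl6 by 0.32 (adjusted p = 0.0326), where 0.37% of all genes fell. This call was lost without any of the same 5 libraries (adjusted p up to 0.249). In macrophage-like cells 0 of 16 passed, where 0.706% of all genes did. Between the groups 0 of 19, 15, 16 and 15 genes tested passed in all, monocyte-like, macrophage-like and dendritic-like cells, where 0%, 0.0491%, 0.018% and 0.0298% of all genes did. Its 3 most abundant genes were ligands, given here over all cells. Ccl3, a ligand of CCR1, had 6147, 4029, 5968 and 2472 CPM in diabetic and 7374, 2605, 848 and 1475 CPM in control wounds. Ccl4 had 5135, 2485, 2652 and 2298 CPM in diabetic and 5859, 2129.6, 989 and 1712 CPM in control wounds, and Ccl6 had 2438, 1053, 1053 and 904 CPM in diabetic and 3323, 882, 980.3 and 1114 CPM in control wounds. Unlike Ccl2 and Ccl7, Ccl3 was highest in neutrophil-like cells when libraries were pooled, at 11068 CPM. The classes are spread unevenly over the days, and no comparison of Ccl3 between classes by library is given here.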

How the data were processed

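For each of the 8 libraries the authors deposited a table of unnormalized UMI counts, with genes by barcodes. Their notes name fastp 0.20.1 and the build mm9, while the study's methods name UMI-tools, STAR and an Ensembl annotation of GRCm38, and the sources differ on the capture platform. Barcodes are running numbers, so barcodes shared between libraries could not be counted. The study's text states fewer cells than the filter used here left, while its table of cells by sampling day sums to nearly as many.

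The members and lists were chosen with earlier results of these data known. Barcodes passing the filter (above 200 genes, mitochondrial share below 20%) were scaled to 10000 counts and clustered with scanpy 1.11.5 (2000 variable genes, 10 components, 30 neighbours, Leiden resolution 0.8), with 25 genes held out. Scrublet called 105 of 35215 cells, too few for a working caller, so doublets were kept. UMIs summed per library and class were tested with edgeR 4.0.16 (R 4.3.3; TMM, filterByExpr, quasi-likelihood test, Benjamini-Hochberg over all genes tested, threshold 0.05), with the day as a term for group effects and the group as a term for slopes. P-values measure the spread between libraries, each a pool, and days serve as replicates. Intervals are exact, at 95%, and cover counting error only, with a floor of 3 counts. Named genes were the 5 members, axis genes that passed or were the 3 most abundant, and the 5 genes most alike to each member by log2(CPM + 20). Alternatives were DESeq2 1.42.0, no TMM, no low-count filter, no day term, other cell filters and clusterings, and leaving out days or libraries. The fits were tested on simulated data with 200 changed genes. These data had a single dispersion for all genes and no other change between days or groups. The shares found thus do not measure the power for genes whose level swings between days. Those for group effects (true log2 of 2) and slopes (0.5 per day) found 98.5% to 100% of them. Those for a differing course (0.5 per day) found only 31.5% to 39.5%.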

Additional observations from a re-analysis of the deposited data

Results flagged for a closer look

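The 5 genes were also found in the 3744 barcodes that the filter removed, which enter no comparison apart from the repeats without the mitochondrial filter and which held 1161639 UMIs. There a count of 0 would allow 2.58 CPM. Ccl8 stood at 906 CPM in removed barcodes against 396 CPM in kept cells, with 1929.6 CPM in those of control day 5, the library that lost most barcodes. Ccl2 stood at 436 against 649.6 CPM, Ccl7 at 417 against 544 CPM, Ccl12 at 126 against 113 CPM and Ccr2 at 163 against 288 CPM. Summed without control day 5, the removed barcodes were no longer higher, with Ccl8 at 293 CPM against 313 CPM in kept cells and Ccl12 at 75.7 CPM against 109 CPM. By library the directions were mixed. Ccl8 was still above the kept cells of the same library in removed barcodes of diabetic days 3, 5 and 7 (242, 308 and 943 CPM) and control day 3 (171 CPM). It was below them on both days 1 and on control day 7. Ccl12 was still above on diabetic day 5 (52.7 CPM) and control day 3 (106 CPM) and below in the remaining libraries.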

How the results depend on the processing

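Each library holds one group on one day, so every test takes days or groups as replicates, and values of small classes rest on few cells, such as the 59 monocyte-like cells of control day 7. Of 455 repeats of a test of one of the 5 genes, 152 without a day or library and 233 under other settings kept direction and side of the threshold, while 4 and 23 newly passed it, 10 and 3 no longer passed it and 14 and 16 changed direction. Of 580 repeats of a ratio by day, 220 moved beyond counting error and 13 changed sign. The cause of the changes below was not tested. Genes called between the groups over all cells numbered 0, with 83 by DESeq2 and 1 with low-count genes kept. In monocyte-like cells there were 5, with 49 by DESeq2, 204 with low-count genes kept, 0 without TMM, 0 without the day as a term, 1 at resolution 1.6, 0 with at least 500 genes per cell and 0 without the mitochondrial filter. In macrophage-like cells there were 2, with 54 by DESeq2, 196 with low-count genes kept, 0 without the day, 1 at resolution 0.4, 1 at resolution 1.6, 1 with at least 500 genes and 5 when the genes described were not held out of the clustering. In dendritic-like cells there were 3, with 14 by DESeq2, 132 with low-count genes kept, 0 without the day, 1 with at least 500 genes, 1 without the mitochondrial filter, 1 without holding out and 0 with cells named singly from marker scores. Leaving out each day gave 0 to 1, 0 to 30, 2 to 15 and 1 to 4 genes in these 4 sets of cells.

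Genes called over days numbered 1378 in all cells, with 2779 by DESeq2 and 2380 without TMM, and 113 in monocyte-like cells, with 379 by DESeq2, 495 with low-count genes kept, 73 with at least 500 genes, 74 with doublets removed and 206 with cells named singly. In macrophage-like cells there were 75, with 202 by DESeq2, 324 with low-count genes kept, 118 without the mitochondrial filter and 150 with cells named singly. Leaving out each library gave 1 to 1618, 19 to 294 and 1 to 157. For a course that differed between groups, DESeq2 called 6 genes in all cells, and keeping low-count genes gave 11 in monocyte-like and 28 in macrophage-like cells, with 0 to 0, 0 to 0 and 0 to 2 when a library was left out. The slope of Ccl8 over all cells was 0.55 to 0.69 and that of Ccl2 in macrophage-like cells -0.29 to -0.17 without single libraries. The latter missed the threshold at resolution 1.6 (-0.26, edgeR adjusted p = 0.0562), with doublets removed (-0.22, 0.0653) and without holding out (-0.19, 0.163).

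With single days left out, the log2 difference over all cells ranged over -0.42 to 0.034 for Ccl2, -0.63 to 0.12 for Ccl7, -0.98 to 0.42 for Ccl8 and -0.26 to 0.43 for Ccr2, each with the other sign (0.034, 0.12, 0.42 and -0.26) without day 5, and that of Ccr2 was -0.026 without the day as a term. In monocyte-like cells the ranges were -0.062 to 0.20 for Ccl2, -0.32 to 0.19 for Ccl7, -1.52 to 0.47 for Ccl8 and -0.48 to 0.30 for Ccr2, and that of Ccl8 was 0.47 without day 5, of Ccr2 0.30 without day 3 and of Ccl2 -0.062 without day 3 and -0.015 without the day as a term. That of Ccl7 there, near 0, was 0.071, 0.19 and 0.0033 without day 1, 5 and 7, 0.0040 with low-count genes kept, 0.16 and 0.29 at resolutions 0.4 and 1.6, 0.13 with at least 500 genes, 0.24 without the mitochondrial filter, 0.29 with doublets removed, 0.017 without holding out and 0.25 with cells named singly. In macrophage-like cells they were -0.023 to 0.39 for Ccl7, -0.084 to 0.16 for Ccl12 and -0.68 to 0.22 for Ccr2, and that of Ccl7 was -0.023 without day 3 and of Ccr2 0.038 and 0.22 without day 1 and 3. That of Ccl12 there, also near 0, was 0.0015 by DESeq2, 0.012 without the day, 0.16 without day 5, 0.12 and 0.18 at resolutions 0.4 and 1.6, 0.19 without the mitochondrial filter and 0.20 without holding out. With class shares of UMIs fixed, an alternative chosen after seeing the data that left out classes under 20 cells in a library, log2 ratios over all cells became 0.15 and 0.012 for Ccl2 on days 1 and 7, 0.080 and 0.19 for Ccl7, -0.11 and -0.028 for Ccr2, and 0.94 for Ccl8 on day 1. With the mean over cells of the CPM, that of Ccl2 on day 1 was 0.068 over all cells, and the log2 ratio of Ccl12, day 7, macrophage-like cells, was -0.092. With cells named singly, that of Ccl2 on day 7 was 0.054 and of Ccl7 on day 5 0.14 in monocyte-like cells, the latter 0.0030 at resolution 1.6, and that of Ccr2 on day 7 was 0.043 in macrophage-like cells.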
